A study of Homo sapiens with 10 samples.

Results

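The apolipoprotein genes APOA1, APOA2, APOA4, APOB, APOC1, APOC3, APOE and APOM and the lipid transfer gene MTTP were followed through the conversion of H1 cells, an established human embryonic stem cell line, into hepatocyte-like cells. They were chosen by name from a list of 10 symbols, and 9 of the 10 were found among the 12125 genes of the table. APOH was not analysed here. RNA of the bulk culture was sequenced on 10 days, with 1 library per day, in a serum-free protocol without a parallel untreated culture. Day 0 cells, kept in a maintenance medium for stem cells, had none of the factors listed below. Cells of days 1, 2 and 3 had Activin A at 100 ng per ml, those of days 5 and 7 had FGF4 at 30 ng per ml and BMP2 at 20 ng per ml, and those of days 9 and 11 had HGF and KGF at 20 ng per ml each. Cells of day 21 had Oncostatin M (OSM) at 20 ng per ml. The sample labels give OSM for day 13 as well, whereas the stated lengths of the steps place day 13 as the last day with HGF and KGF. The base medium also changed with the steps. It lacked insulin with Activin A and held insulin with FGF4 and BMP2 and with HGF and KGF. With OSM it was a hepatocyte culture medium. Where both changed, factor and medium cannot be told apart.

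Lipoproteins carry triglyceride and cholesterol through blood in particles held together by apolipoproteins. In the hepatocyte, MTTP transfers lipid to the growing chain of APOB in the endoplasmic reticulum, which starts a very low density lipoprotein, and APOA1 and APOA2 form the core of high density lipoprotein. The smaller exchangeable proteins, among them APOC1, APOC3, APOE and APOA4, move between particles and act on lipases and receptors, and APOM carries sphingosine 1-phosphate. The fetal liver, the yolk sac and the intestine make several of the same proteins.

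The values are GC-normalized scores in whole numbers and not read counts, so the depth of each library is unknown and levels of different genes were not compared. High values fell into narrow steps shared by all libraries, with 9 or 10 genes per step. There were 31 such steps from 1000 upwards, the first 10 of them reached down to 2164, and the top value of 18734 was held by 10 genes in every library. A high value therefore gives a rank among genes, and a gene at 18734 could not read higher. With 1 library per day no test was possible, and differences of log2(value + 1) between days are descriptions. A gene was called higher or lower where this difference was 2 or more (4-fold) and the larger of its values was 50 or more. As a yardstick for noise, the SD of the day 11 minus day 9 differences was taken over the 500 genes nearest in level. It is named the spread below, and it also holds any true change between those days.

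Marker genes followed the labels. Of 10 pluripotency markers, 10 were called lower on day 21 than on day 0, of 12 definitive endoderm markers 12 were called higher on day 3, and of 15 hepatocyte markers 14 were called higher on day 21 than on day 0. Of 12 stromal markers, 10 were also called higher on day 21 than on day 0. In a bulk library, fewer cells of a type and less RNA per cell cannot be told apart.

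Between day 0 and day 21, 7 of the 9 genes were called higher and 0 lower, beside 9.53% of all genes called higher and 9.24% called lower. The 2 others were APOE and APOC1, with differences of 1.10 and 1.86; that of APOC1 was 2.05, and called, under median of ratios scaling. The median log2 difference was 9.16 for the 9 genes and -0.12 for all genes. The 7 called genes met the minimum of 50 only through day 21, since their day 0 values lay between 0 and 16, while all 9 genes met it. APOA2, APOA4 and APOC3 were listed at 0 on day 0 and have no fold, and their log2 differences depend on the constant added.

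**Figure D1:**
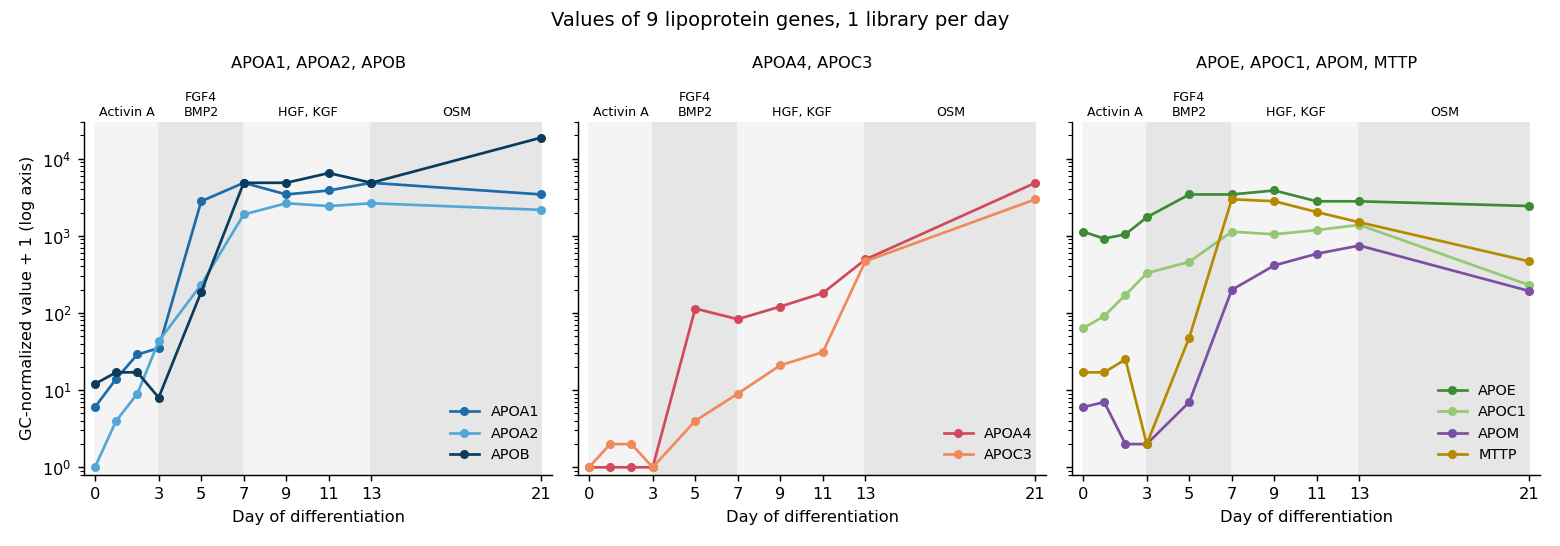
Value + 1 of each gene (log axis) against day, with 1 point per library and lines joining the days; grey bands mark the steps of the protocol by their stated lengths, which put the day 13 library at the end of HGF and KGF although its label gives OSM. APOA1, APOA2 and APOB had made their large rise by day 7, APOB, APOA4 and APOC3 had their highest value on day 21, APOB at the ceiling of 18734, and APOC1, APOM and MTTP were lower on day 21 than on day 13.

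The largest group of calls fell in the FGF4 and BMP2 step. From day 3 to day 7, APOA1, APOA2, APOA4, APOB, APOM and MTTP were called higher, 6 of 9 genes beside 4.22% of all genes, and 0 were called lower beside 3.31%. The median difference was 6.38 for the 9 genes and -0.03 for all genes. Of the 9 genes, 8 met the minimum value, APOC3 being the exception. The 6 called genes met it only through day 7, since their day 3 values lay between 0 and 42. None of these 6 could therefore have been called lower. On the day at which a gene was first called against day 0, APOC1 came on day 3, APOA1, APOA2, APOA4 and APOB on day 5, APOM and MTTP on day 7, and APOC3 on day 13, while APOE was called on no day.

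APOB encodes the large, non-exchangeable protein of very low and low density lipoproteins (ENSG00000084674, chr2:21224301-21266945, minus strand, in the coordinates of the table). Its value was 11 on day 0, 16 on days 1 and 2, 7 on day 3, 186 on day 5, 4856 on days 7 and 9, 6494 on day 11, 4856 on day 13 and 18734 on day 21. The gene rose from day 3 to day 7 by a log2 difference of 9.25 beside a spread of 0.29, from a value near the floor to one on a shared step, and then stayed on the same pair of shared steps until day 13. Its day 21 value was the ceiling of the scale. The day 21 minus day 13 difference was 1.95, just under the threshold of 2 and above the spread of 0.30. It was 2.03, and called, when libraries were scaled by the median of ratios. Both values lie on shared steps, so these differences reflect the gap between 2 steps of the scale and not a measured size of change. The spread there draws mostly on genes below these steps.

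MTTP (ENSG00000138823, chr4:100484918-100504573, plus strand) is the partner that APOB needs to be secreted. It read 16, 16, 24 and 1 on days 0, 1, 2 and 3, 47 on day 5, 2972 on day 7, 2802 on day 9, 2028 on day 11, 1494 on day 13 and 464 on day 21. MTTP rose from day 3 to day 7 by a log2 difference of 10.54, the largest of the 9 genes in that step, although the day 3 value of 1 makes its size depend on the constant added. From day 7 on every value was below the one before. Up to day 13 these values lay on shared steps, and each difference between successive days was under 2 spreads. The day 13 minus day 7 difference was -0.99 beside a spread of 0.30. The day 21 minus day 13 difference was -1.68 beside a spread of 0.27. With day 11 in place of day 13, a choice made after seeing the data, the difference was -2.13 and the gene was called lower. In the same day 21 library APOB stood at the ceiling of the scale. The other subunit of the transfer complex, P4HB, read 1554 on day 0, 4855 on day 7 and 2426 on day 21 and was called in none of the 5 comparisons.

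APOA1 (ENSG00000118137, chr11:116706467-116708302, minus strand), the main protein of high density lipoprotein and the activator of LCAT, already read 13 on day 1, 28 on day 2 and 34 on day 3, against 5 on day 0. It then read 2796 on day 5, 4855 on day 7, 3428 on day 9, 3860 on day 11, 4855 on day 13 and 3428 on day 21. The rise from day 3 to day 5 was 6.32 on the log2 scale beside a spread of 0.26. From day 5 to day 7 the difference was 0.80 beside a spread of 0.30. When the 10 days were put in order of level, the step from day 3 to day 5 was the single one between neighbours over 2 spreads.

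APOA2 (ENSG00000158874, chr1:161192082-161193403, minus strand), the other abundant protein of high density lipoprotein, read 0, 3, 8 and 42 on days 0 to 3, 232 on day 5, 1886 on day 7, 2636 on day 9, 2426 on day 11, 2636 on day 13 and 2164 on day 21. It was called higher from day 3 to day 7 with a difference of 5.46 beside a spread of 0.26. From day 7 on its values lay between 1886 and 2636. The day 5 value of APOA2 was below all later ones.

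APOA4 (ENSG00000110244, chr11:116691419-116694022, minus strand), a protein of chylomicrons and high density lipoprotein, and APOC3 (ENSG00000110245, chr11:116700422-116701598, plus strand), an inhibitor of lipoprotein lipase, were the genes called higher after day 7. APOA4 was listed at 0 up to day 3 and read 113 on day 5, 82 on day 7, 120 on day 9, 180 on day 11, 492 on day 13 and 4855 on day 21. APOC3 read 0, 1, 1, 0, 3, 8, 20 and 30 from day 0 to day 11, then 466 on day 13 and 2968 on day 21.

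From day 7 to day 13, APOA4 and APOC3 were called higher, 2 of 9 genes beside 2.26% of all genes, with differences of 2.57 and 5.70 beside spreads of 0.29 and 0.39. No member was called lower, 0 of 9 beside 1.81%. From day 13 to day 21 both genes were called higher again, beside 1.65% of all genes, with differences of 3.30 and 2.67. The step before day 13 turned on that library: from day 7 to day 11, 0 of 9 genes were called higher beside 1.2%, and APOA4 differed by 1.12 and APOC3 by 1.78. From day 11 to day 21 the differences were 4.75 for APOA4 and 6.58 for APOC3.

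Markers of other cells were read on the same days. Of 12 listed markers of intestinal epithelium, where APOA4 is also made, 4 were found, and their summed value was 4 on day 0, 404 on day 7, 452 on day 13 and 654 on day 21. CDX2, VIL1 and SI were called higher on day 21 than on day 0, but 0 of the 4 were called from day 7 to day 13 or from day 13 to day 21. Over this last step CDX2 read 197 and 162, VIL1 134 and 374, SI 35 and 96 and ISX 86 and 22. Of 12 stromal markers 6 were called higher from day 7 to day 13 and 0 from day 13 to day 21, and of 15 hepatocyte markers the counts were 5 and 7. Their part in the rise of APOA4 and APOC3 was not tested.

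APOE (ENSG00000130203, chr19:45408956-45412650, plus strand), a ligand of lipoprotein receptors, was called in no comparison and was already on a shared step above 1000 on day 0. It read 1129 on day 0, 918 on day 1, 1044 on day 2, 1733 on day 3, 3428 on days 5 and 7, 3861 on day 9, 2796 on days 11 and 13 and 2428 on day 21. The day 7 minus day 3 difference was 0.98 and the day 21 minus day 0 difference was 1.10 beside a spread of 0.28.

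APOC1 (ENSG00000130208, chr19:45417921-45422606, plus strand), an inhibitor of the uptake of remnants by receptors, was the single gene called in the Activin A step, 1 of 9 beside 2.9% called higher. No member was called lower there, beside 1.59%, and 2 of the 9 genes met the minimum value in that step. APOC1 read 62 on day 0, 90 on day 1, 170 on day 2, 326 on day 3, 459 on day 5, 1129 on day 7, 1044 on day 9, 1184 on day 11, 1384 on day 13 and 228 on day 21. The rise over the first 3 days was 2.38 on the log2 scale beside a spread of 0.34. It was also the single gene called lower from day 13 to day 21, 1 of 9 beside 1.17% of all genes, with a difference of -2.60 beside a spread of 0.28.

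Over the same days its neighbour APOE differed by -0.20. Macrophages also make both proteins. Of 14 macrophage markers 3 were found, and their summed value was 42 on day 0, 83 on day 13 and 416 on day 21. On days 0, 13 and 21 CD68 read 0, 50 and 259, LAPTM5 3, 33 and 92, and PTPRC 39, 0 and 65. From day 13 to day 21 CD68 and PTPRC were called higher, 2 of 3 beside 1.65% of all genes. PTPRC was not called between day 0 and day 21. The part of these markers in the APOE and APOC1 values was not tested.

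APOM (ENSG00000204444, chr6:31620193-31625859, plus strand), the carrier of sphingosine 1-phosphate in high density lipoprotein, read 5, 6, 1, 1 and 6 from day 0 to day 5, then 198 on day 7, 412 on day 9, 584 on day 11, 746 on day 13 and 191 on day 21. It rose from day 3 to day 7 with a difference of 6.64 beside a spread of 0.63. The day 13 minus day 7 difference was 1.91 and the day 21 minus day 13 difference was -1.96, each just under the threshold in size and well above the spread of 0.26. APOC1, APOM and MTTP therefore all stood lower on day 21 than on day 13, while APOA4, APOC3 and APOB stood higher and the differences of APOA1, APOA2 and APOE lay between -0.50 and -0.20.

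Several of the genes lie beside each other. APOA4, APOC3 and APOA1 form a cluster on chromosome 11, with 6399 bases between APOA4 and APOC3 and 4868 bases between APOC3 and APOA1, and APOC3 is read from the opposite strand to the other two. APOE and APOC1 lie 5270 bases apart on chromosome 19. Within the chromosome 11 cluster the genes were first called against day 0 on day 5 (APOA1 and APOA4) and day 13 (APOC3).

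RefSeq promoters on GRCh38.p14 were matched for 6 of the 9 genes, all but APOA1, APOB and APOC3, in 9 windows of 250 bases before and 50 bases after a start. Short motifs of liver factors were sought on both strands of each window. The sequences of APOA2 and APOA4 are shown because they held a match, and those of APOE and APOC1 because these neighbours differed in the last step. Each is the stretch of 150 bases that ends at the base before the start, in the direction of transcription, with matches in capitals. Their positions are on GRCh38.p14. They cannot be set beside the gene intervals given above, which are in the coordinates of the table. The APOA2 stretch lies at chr1:161223629-161223778 (minus strand), that of APOA4 at chr11:116823305-116823454 (minus strand), that of APOE, for the most upstream of its 3 starts, at chr19:44905646-44905795 (plus strand) and that of APOC1 at chr19:44914522-44914671 (plus strand).
APOA2: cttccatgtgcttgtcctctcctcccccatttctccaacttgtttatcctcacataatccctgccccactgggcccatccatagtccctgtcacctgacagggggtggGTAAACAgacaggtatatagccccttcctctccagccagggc
APOA4: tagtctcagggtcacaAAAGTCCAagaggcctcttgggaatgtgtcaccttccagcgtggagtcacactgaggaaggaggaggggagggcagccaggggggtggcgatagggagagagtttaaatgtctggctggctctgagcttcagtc
APOE: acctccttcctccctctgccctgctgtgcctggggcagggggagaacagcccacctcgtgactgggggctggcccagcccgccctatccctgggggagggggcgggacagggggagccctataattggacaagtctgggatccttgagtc
APOC1: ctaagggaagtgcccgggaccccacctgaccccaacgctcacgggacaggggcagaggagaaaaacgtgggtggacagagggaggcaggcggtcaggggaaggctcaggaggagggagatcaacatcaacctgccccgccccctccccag

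The FOXA motif TGTTTAC was found in APOA2, on the other strand at base -42 from the start, and in 3.42% of all 35116 promoters. The shorter HNF4A motif AAAGTCCA, part of the longer CAAAGTCCA, was found in APOA4 at base -134 and in 1.14% of all promoters. The longer form was in 0 of the 9 windows and in 0.384% of all, and TTGCNNAA of the C/EBP family in 0 of 9 and in 10.5%. A TATAAA match lay in 1 of the 2 MTTP windows, on the other strand at base -227, beside 11.5% of all promoters. These are matches of letters and not measured binding.

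Genes around the members were seldom called. Within 100 kb of the 9 genes lay 31 other genes of the table, near 8 of the members (all but APOB), and 0 of the 31 were called higher and 0 lower on day 21 against day 0, beside 18.8% of all genes called in either direction. Of the 31, 29 were called in none of the 5 comparisons, and BCAM and LY6G5B were called in 1 each. The median log2 range over the 10 days was 1.2 for the 31 neighbours, 10.54 for the members and 1.7 for all genes.

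TOMM40, which lies 2021 bases from APOE, read 300 on day 0, 208 on day 7 and 96 on day 21. C6orf47, 216 bases from APOM, read 34, 44 and 24 on these days. SIK3, 5816 bases from APOA1, read 66, 167 and 176, and its levels over the 10 days had a Pearson's r of 0.96 with those of APOA1. NR1I3, the nuclear receptor gene 6053 bases from APOA2, read 4, 20 and 31 with a maximum of 56 on day 13 and had an r of 0.92 with APOA2. RG9MTD2 overlaps the interval of MTTP on the other strand and read 46, 64 and 38, so that reads in the overlap could count for either gene if strand was not used. In a wider window of 500 kb, 17 of 90 neighbours were called, 18.9% beside 18.8% of all genes.

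Over the 10 days, the levels of the 36 pairs of members had Pearson's r between 0.44 (APOC1 and APOC3) and 0.97 (APOA1 and APOA2), with a median of 0.84, and 11 pairs reached 0.9. The days share 1 course of differentiation, so these values are descriptions with no test. Without day 21, 17 pairs reached 0.9. For differences between successive days, 0 of 36 pairs did, the median was 0.35, and the highest value was 0.87 for APOB and MTTP.

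Among 4322 genes with a largest value of 50 or more and a log2 range of 2 or more, the 3 genes most like each member over the 10 days were listed. For APOB they were HAVCR1 (r = 0.991), AFP (0.990), the fetal counterpart of albumin, and FOSL2 (0.990). For MTTP they were CXXC4 (0.984), OAF (0.981) and ABCC2 (0.978), a canalicular transporter of the hepatocyte. For APOA1 they were B4GALT1 (0.994), CTSL1 (0.990) and EXT1 (0.989), and for APOA2 AMN (0.990), the partner of the cubilin receptor, PACS1 (0.989) and SPARC (0.987), a matrix protein gene. TACC1 (0.994), KDELR3 (0.993) and GUCY1A3 (0.982) were the most like APOA4, and PDCD4 (0.985), THRA (0.983) and PID1 (0.983) the most like APOC3. PPFIBP2 (0.991), COL4A5 (0.983) and ADAMTS12 (0.982) were the most like APOE, and APLNR (0.977), PKP2 (0.976) and KRT8 (0.971) the most like APOC1. For APOM they were TESK2 (0.995), DDC (0.990) and ITIH4 (0.988), a liver plasma protein gene. AFP and SPARC read the ceiling of 18734 on every day from day 7 to day 21, and KRT8 from day 7 to day 13. Their r values therefore cannot show whether they changed together with a member between those days.

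The rest of the lipoprotein pathway was described from 5 fixed lists. Of the genes for assembly and secretion, 20 of 24 were found. In the day 3 to day 7 step 6 of the 20 were called higher and 0 lower, beside 4.22% and 3.31% of all genes, and on day 21 against day 0 the counts were 8 higher and 0 lower, beside 9.53% and 9.24%. SOAT2, which makes cholesteryl ester for secretion, was listed at 0 up to day 3 and read 192 on day 7 and 148 on day 21. PLA2G12B, which takes part in lipoprotein secretion, was also listed at 0 up to day 3 and read 98 and 69. CIDEB, a protein of lipid droplets and lipoprotein particles, read 0 on day 3, 52 on day 7 and 61 on day 21. STARD10, a phospholipid transfer protein, read 24 on day 0 and 286 on day 21.

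Of the receptors and their regulators, 21 of 22 were found, with 6 called higher and 2 lower on day 21 against day 0, beside 9.53% and 9.24% of all genes; the share called lower was close to that of all genes. CUBN, a receptor of high density lipoprotein, was listed at 0 on day 0, read 642 on day 7 and 212 on day 21, and its partner AMN read 1, 104 and 157. CD36, a fatty acid and lipoprotein receptor, read 128 on day 21 and was listed at 0 on day 0. SCARB1, the receptor of high density lipoprotein, read 207 on day 0, 322 on day 7 and 724 on day 21 and was not called. LRP8, an APOE receptor named here after its values were seen, fell from 300 on day 0 to 8 on day 21.

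Of the genes for remodelling and lipases, 9 of 18 were found and 5 were called higher on day 21 against day 0, beside 9.53% of all genes. ABCA1, which moves cholesterol onto APOA1, read 6 on day 0, 54 on day 3, 1088 on day 7 and 1000 on day 21. PCSK6 read 8 on day 0 and 1088 on day 21 and BMP1 8 and 496. Hepatic lipase, LIPC, chosen after its values were seen, read 388 on day 13 and 49 on day 21 and was called lower in that step, as APOC1 was. Of a list of other apolipoproteins and related proteins 6 of 22 were found. The single one called higher on day 21 against day 0, beside 9.53% of all genes, was PON2, with 38 and 424. PON2 is a paraoxonase and not an apolipoprotein.

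Of the factors that act on apolipoprotein genes, 20 of 26 were found, with 6 called higher and 0 lower from day 3 to day 7, beside 4.22% and 3.31% of all genes, and 9 higher and 1 lower on day 21 against day 0, beside 9.53% and 9.24%. HNF4A, the nuclear receptor known to bind many of these promoters, was listed at 0 on day 0 and read 28 on day 3, 299 on day 5, 1044 on day 7, 838 on day 13 and 470 on day 21. Its levels had an r of 0.98 with APOA1 and with APOA2 and of 0.66 with APOC3 over the 10 days. NR2F2 was listed at 0 on day 0 and read 154 on day 13 and 234 on day 21. On these days FOXA1 read 0, 111 and 54. CREB3L3, a factor of the endoplasmic reticulum that acts on APOA4 and APOC2, read 1, 268 and 99. CEBPA read 5 on day 0, 266 on day 13 and 160 on day 21. Its r with the members lay between 0.77 for APOC1 and 0.94 for APOB and APOM, with 0.79 for APOC3. FOXA2 read 0, 190, 343, 144 and 48 on days 0, 3, 7, 13 and 21, and was highest on day 7. The r of FOXA2 with the members lay between 0.19 for APOC3 and 0.73 for APOC1.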

How the data were processed

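RNA-seq reads were processed by the authors with Bowtie2 v2.2.0, RSEM v1.2.17 (Ensembl release 76) and, for GC normalization, EDASeq v2.0.0. Their deposited values are whole-number scores for 12125 genes, not counts, and depth is stated only as an average over libraries. The submitters' notes name the builds hg19 and mm10 without a role, so intervals are those of the table. The 10 columns were matched to days by name, and 0 were left out.

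The members and lists were chosen with earlier results of these data known. Differences of log2(value + 1) were computed with Python 3.11.15, numpy 2.4.6 and pandas 2.3.3, checked on simulated data, and drawn with matplotlib 3.10.9. Named genes are the members, the 3 most like each, genes within 100 kb, up to 4 called genes per pathway list with the largest day 21 minus day 0 difference, and SCARB1, HNF4A, FOXA2 and CEBPA; P4HB, LRP8 and LIPC were added after their values were seen. Alternatives were pseudocounts of 0.1 and 5, median of ratios scaling, other minimum values, a threshold of 3 spreads, a 500 kb window and other measures of likeness. Some genes that this rule names are not reported here.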

Additional observations from a re-analysis of the deposited data

How the results depend on the processing

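No paired analysis was possible because each day had 1 library, and no replicate could be left out. Scaling by the median of ratios moved the median of all genes by 0.177 on the log2 scale between days 0 and 21, and with it APOB was called higher from day 13 to day 21 (3 members) and APOC1 from day 0 to day 21 (8 members). No count of called members moved by over 1.5 times with this scaling, other pseudocounts or a minimum of 200. Of 135 log2 differences of members under an alternative, 21 moved by more than the spread, all with another pseudocount, and no called difference changed sign. With no minimum value, 3 members were called higher and 1 lower from day 0 to day 3. With a threshold of 3 spreads, 1 member was called lower from day 7 to day 13 and 3 from day 13 to day 21. With this threshold 8 members were called higher from day 3 to day 7 and 9 from day 0 to day 21. The share of all genes is not given for these settings or for the pathway lists below. Those counts can therefore not be set beside it. Day 11 was also put in place of day 13, a choice made after seeing the data. From day 7 to day 11, 0 members were called higher beside 1.2% of all genes. From day 11 to day 21, 2 were called lower beside 1.72%. With a value of at least 200 asked for, APOA4 was called against day 0 at day 13, APOB at day 7 and APOM at day 9. Pairs with r of 0.9 or more numbered 4 by Spearman's rho, 17 without day 21 and 0 for successive differences. Within 500 kb, 6 neighbours were called higher and 11 lower. For the pathway lists together, no minimum gave 11 higher and 2 lower (day 0 to day 3), 2 lower in both later steps (day 7 to day 13 and day 13 to day 21) and 5 lower (day 0 to day 21). A minimum of 200 gave 0 and 0 (day 0 to day 3), and 6, 1 and 15 higher (day 3 to day 7, day 7 to day 13, day 0 to day 21). A pseudocount of 5 gave 0 lower from day 0 to day 3. With 3 spreads, 10 were higher and 6 lower (day 0 to day 3), 30 higher (day 3 to day 7), 17 higher and 7 lower in both later steps, and 47 higher (day 0 to day 21).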
